A study of Mus musculus with 2 samples.

Results

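The immediate early transcription factor genes Fos, Fosb, Fosl1, Fosl2, Jun, Junb, Jund, Egr1 and Egr2, together with Ier2, were followed in a mouse glioblastoma stem cell line. Members were chosen by gene name, and every array probe whose RefSeq accession maps to one of them was taken. This gave 10 genes among 23784 named genes on the array, with 14 probes in all. 4 genes (Fosb, Fosl2, Junb and Jund) had 2 probes each and 6 had 1.

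RNA came from 2 cultures of this line, which was derived as neurospheres from glioblastomas induced de novo in mice with a Sleeping Beauty transposon and grown without serum in the presence of EGF and bFGF. The Gli2 shRNA culture carried a lentiviral shRNA against Gli2, a transcription factor of the Hedgehog pathway, and the control culture carried a lentiviral non-target shRNA. Both were stably transduced and both came from the same line. No untransduced culture was analysed here. 1 array was hybridised per group, and the values below therefore have no replicate check and no test. In such bulk RNA, fewer cells of a type and less RNA per cell cannot be told apart.

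Immediate early genes are switched on within minutes of a growth factor, stress or calcium signal, without new protein synthesis. ERK and related kinases act on serum response factor, its ternary complex partners of the Elk family and CREB at these promoters, and the transcripts decay quickly. Fos proteins pair with Jun proteins to form the AP-1 transcription factor, Jun proteins also pair with each other, and Egr proteins bind GC-rich sites through zinc fingers. In human glioblastoma, AP-1 members, FOSL1 and FOSL2 among them, are linked to the mesenchymal state.

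Most immediate early genes differed little between the 2 arrays, and so did most of all genes measured. 9 of the 10 genes were measured on both arrays, which means that their brightest probe was marked as well above background on each. None of these 9 was past 2-fold on its brightest probe, where 3.63% of the 14563 named genes measured on both arrays were. 4 lay above 0 and 5 below (50.3% of all these genes lay above 0). With the mean of a gene's measured probes in place of the brightest, 2 of the 9 lay above 0 and the member median was -0.12, since Fosl2 and Junb then lay below 0. The median log2 difference was -0.02 for the members and 0.00294 for all genes. On the brightest probes the span ran from -0.37 for Egr1 to 0.63 for Fosl2. On the mean of probes it ran from -0.42 for Fosl2 to 0.41 for Fos. With the brightest probes 8 of the 9 members lay within 0.5 of 0 on the log2 scale, as did 83.6% of all genes.

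Signals are given below as the scanner software's processed signal on each array. The Gli2 shRNA array was the brighter, with a 75th percentile of 399 against 329 on the control array. The log2 differences are taken after dividing each array by that percentile, so equal cell levels would give a higher raw signal on the Gli2 shRNA array. The error after ± combines what the scanner software estimated for the spot on each array. It was 10.0% of the signal for the bright members on either array, and so 0.20 on the log2 scale. It covers the spot and not the culture.

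The Gli2 probe, as a check of the labels, gave 57.9 in the Gli2 shRNA culture and 98.1 in the control culture. The difference of -1.04 ± 0.22, or 2.05-fold lower, was -0.64 with normexp background correction and -0.97 with cyclic loess. Neural stem cell genes were present in both cultures, with all 10 markers listed for such cells measured on both arrays. Of the microglial and macrophage markers 4 of 10 were measured on both arrays: Itgam (5413 in the Gli2 shRNA culture and 4694 in the control culture), Csf1r (432 in the Gli2 shRNA culture and 390 in the control culture), Cd68 and C1qb. Cx3cr1, Ptprc and C1qa were not well above background on either. Tmem119, P2ry12 and Aif1 were so on the control array only, with dim signals there of 21.5, 19.1 and 17.5. The summed scaled signal of that list was 15.9 in the Gli2 shRNA culture and 16.9 in the control culture. Of the endothelial markers 3 of 8 were measured on both arrays. The sums over all 8 were 0.414 in the Gli2 shRNA culture and 0.489 in the control culture. Cldn5, Flt1, Cdh5, Vwf and Tek were not well above background on either array. Of the fibroblast and mural markers 3 of 9 were measured on both arrays. The sums over all 9 were 22.4 in the Gli2 shRNA culture and 25.2 in the control culture. Among the measured ones were Acta2 (8242 in the Gli2 shRNA culture and 7786 in the control culture) and Tagln (632 in the Gli2 shRNA culture and 447 in the control culture). Pdgfrb, Dcn, Lum and Rgs5 were not well above background on either array. Col1a1 was so on the control array only (16.0) and Col3a1 on the Gli2 shRNA array only (15.8).

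Promoter windows were looked up for the members, because these genes are classed together by how their promoters respond to signals. The search used 11 windows of 300 bases for 7 members, from the RefSeq table of build GRCm38.p6. Each window held 250 bases before the transcript start and 50 after it. 3 are shown: Fos and Egr2, single-probe members that lay above 0, and Jun, a single-probe member that lay below 0. Capitals mark matches on either strand to the CArG box (the binding site of serum response factor), the CRE core TGACG of CREB sites, the AP-1-like site TGACATCA of the Jun promoter and the TATA motif TATAAA. The windows lie at chr12:85473640-85473939 (Fos, plus strand), chr10:67537619-67537918 (Egr2, plus strand) and chr4:95052173-95052472 (Jun, minus strand), each printed 5′ to 3′ along its gene.
Fos: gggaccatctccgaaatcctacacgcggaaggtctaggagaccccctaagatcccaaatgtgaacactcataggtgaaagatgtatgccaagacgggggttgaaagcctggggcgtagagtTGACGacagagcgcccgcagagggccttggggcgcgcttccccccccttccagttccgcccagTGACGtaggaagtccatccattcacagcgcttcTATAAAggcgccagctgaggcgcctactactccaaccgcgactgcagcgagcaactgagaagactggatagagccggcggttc
Egr2: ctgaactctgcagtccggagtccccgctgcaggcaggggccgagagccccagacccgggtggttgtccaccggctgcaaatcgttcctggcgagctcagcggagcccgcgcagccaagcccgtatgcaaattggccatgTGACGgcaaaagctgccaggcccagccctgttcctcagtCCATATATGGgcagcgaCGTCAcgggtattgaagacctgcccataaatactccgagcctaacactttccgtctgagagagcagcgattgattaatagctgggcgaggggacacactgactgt
Jun: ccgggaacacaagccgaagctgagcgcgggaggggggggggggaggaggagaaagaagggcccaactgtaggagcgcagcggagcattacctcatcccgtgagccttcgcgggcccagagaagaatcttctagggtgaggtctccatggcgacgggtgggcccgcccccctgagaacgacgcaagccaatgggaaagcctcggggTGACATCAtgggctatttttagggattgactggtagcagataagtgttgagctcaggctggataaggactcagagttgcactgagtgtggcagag

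The Egr2 window held a CArG box, CCATATATGG, whose first base lies at -72 from the transcript start. A CArG box was found in 4 of the 5 Egr2 windows, 3 of which overlap and share this one, and in 1.63% of all 32851 promoter windows. The Fos window held the CRE core at -129 and -66, and TATAAA at -33. The CRE core occurred in 20.8% of all windows and TATAAA in 13.6%. The Jun window held TGACATCA at -45, which occurred in 3.62% of all windows. The site GCGNGGGCG of Egr proteins was found in the windows of Fosb and Fosl2 and in 5.55% of all windows. The GLI site GACCACCCA, present in 0.253% of all windows, the full CRE TGACGTCA (1.79%) and the AP-1 site TGACTCA (5.20%) were in none of the 11 windows. Windows on chromosome 18, where Egr1 lies, were left out of the search, so Egr1 was not searched. The 11 windows also held none of Fosl1 or Ier2. The absences therefore do not cover Egr1, Fosl1 or Ier2. Both strands were searched, and the CRE core is part of the full CRE. A match is a string of letters and no evidence of binding, and no match says only that these letters are not in this window.

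Fos, the founding member of its family and the partner of Jun in AP-1, was somewhat higher in the Gli2 shRNA culture. Its probe gave 1259 in the Gli2 shRNA culture and 781 in the control culture. The scaled difference was 0.41 ± 0.20, or 1.33-fold, and lay 2.01 software errors above 0. Across all genes 10.8% had a difference at least as high. Among the 6481 genes with a signal between 500 and 10000 on both arrays, whose differences had an SD of 0.31, the share was 6.43%. The unprocessed spot median was 1269 over a local background of 34 in the Gli2 shRNA culture and 834 over 42 in the control culture, before the scaling between arrays.

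Fosl2, which encodes Fra-2, a Fos protein without the strong activation domain of Fos, gave opposite results on its probes. The brighter probe had a signal of 208 in the Gli2 shRNA culture and 111 in the control culture, a difference of 0.63 ± 0.21 or 1.54-fold higher. The other probe had 20.1 in the Gli2 shRNA culture and 45.9 in the control culture, a difference of -1.47 ± 0.35 or 2.77-fold lower.

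The dimmer Fosl2 probe was the only member probe past 2-fold among the 12 measured on both arrays, and 1.78% of all 31115 probes measured on both arrays were at least 2-fold lower. Both probes carry the same accession (NM_008037), and where on the transcript each binds was not analysed here. Their differences lay 2.09 apart on the log2 scale. Of 4148 genes with 2 probes measured on both arrays, 7 (0.169%) had a gap at least as wide, and the median gap was 0.133. The signal of the dimmer probe in the Gli2 shRNA culture was close to 15.2, the dimmest signal there that the software still marked as well above background. Its spot median was 59 over a local background of 33 in the Gli2 shRNA culture and 81 over 44 in the control culture. With normexp its difference was -0.50, within 2-fold. Fosl2 therefore has no settled direction in these arrays.

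The other Fos genes were dim. Fosb, which encodes a Fos protein known for its long-lived splice form in neurons, gave 58.8 in the Gli2 shRNA culture and 52.7 in the control culture on its brighter probe. The difference was -0.12 ± 0.24, and the spot median was 84.5 on both arrays. Its other probe was not well above background in either culture (3.59 in the Gli2 shRNA culture and 3.09 in the control culture). Fosl1, which encodes Fra-1, was not well above background either, at 5.01 in the Gli2 shRNA culture and 3.19 in the control culture, so no difference is given for it.

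**Figure D1:**
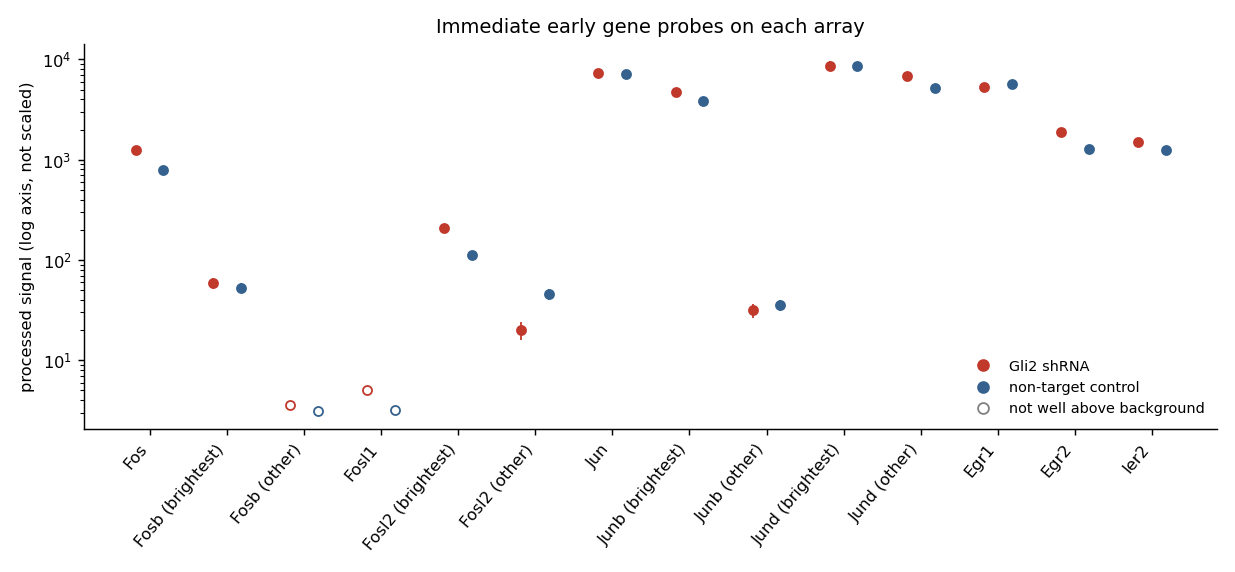
Processed signal of each of the 14 probes of the 10 immediate early genes (log axis, not scaled between arrays), with the Gli2 shRNA array in red left of the control array in blue. Bars are 1 software error, and open points are probes not well above background, drawn without bars. Fosl1 and the dimmer Fosb probe lie near 3 to 5 on both arrays, and the Fosl2 probes go opposite ways.

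The Jun genes, which encode the DNA-binding partners of Fos proteins, differed little. Jun gave 7362 in the Gli2 shRNA culture and 7100 in the control culture. After scaling this was -0.22 ± 0.20, or 1.17-fold lower. Junb, a Jun protein that restrains growth in several cell types, gave 4759 in the Gli2 shRNA culture and 3868 in the control culture, a difference of 0.02 ± 0.20. Its other probe was dim, with 31.4 in the Gli2 shRNA culture and 35.5 in the control culture, and differed by -0.45 ± 0.30.

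Jund, the most constantly expressed Jun gene in most tissues, was measured by 2 bright probes named by different RefSeq transcripts of the gene. The brightest gave 8676 in the Gli2 shRNA culture and 8570 in the control culture, a difference of -0.26 ± 0.20. The other gave 6827 in the Gli2 shRNA culture and 5190 in the control culture, a difference of 0.12 ± 0.20. The gap between them was 0.38, and 17.5% of genes with 2 measured probes had a gap at least as wide. All 3 members with 2 measured probes (Fosl2, Junb and Jund) thus had probes on opposite sides of 0, as did 26.4% of the 4148 genes with 2 measured probes.

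The Egr genes lay on opposite sides of 0. Egr1, a zinc finger factor induced by growth factors and by neuronal activity, gave 5280 in the Gli2 shRNA culture and 5650 in the control culture. The scaled difference was -0.37 ± 0.20, or 1.30-fold lower, and 12.4% of all genes had one at least as low. Among the 7 members with a brightest-probe signal between 500 and 10000 on both arrays, Egr1 was the one whose unscaled signal was lower in the Gli2 shRNA culture.

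Egr2, also called Krox20 and required for hindbrain patterning and for myelination by Schwann cells, gave 1891 in the Gli2 shRNA culture and 1284 in the control culture. The difference was 0.28 ± 0.20, or 1.22-fold, with 18.2% of all genes at least as high. Ier2, a nuclear protein gene induced by growth factors that lies on the same chromosome as Junb and Jund, gave 1491 in the Gli2 shRNA culture and 1243 in the control culture. Its difference was -0.02 ± 0.20, which puts it at the centre of the members. 17 protein-coding genes lie between Ier2 and Junb in the gene table.

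The members did not shift together. The widest distance between single-probe members was that of Fos over Egr1, 0.79 ± 0.29 on the log2 scale, a comparison in which the scaling of the arrays cancels. Fos lay 0.64 ± 0.29 above Jun, and Egr2 lay 0.66 ± 0.29 above Egr1. These pairs were chosen after their values were seen. 2 of the 9 members (Fos and Fosl2) lay 2 or more software errors from 0, and 19.5% of all genes did. Fos passed this mark narrowly, and with normexp the differences were 0.35 for Fos and 0.33 for the brighter Fosl2 probe, less than 2 of the errors given above. The SD of the difference over the 9 members was 0.34, against 0.42 over all genes.

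**Figure D2:**
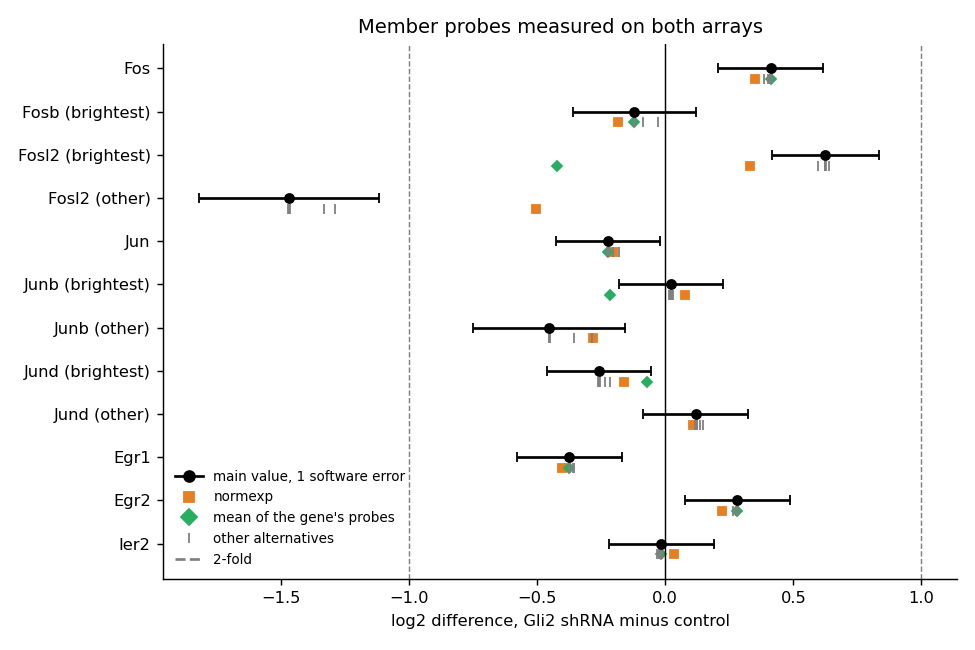
Log2 difference, Gli2 shRNA minus control, of the 12 member probes measured on both arrays. Black points carry 1 software error, coloured and grey marks under them are the processing alternatives, and dashed lines mark 2-fold. The dimmer Fosl2 probe at -1.47 lies past 2-fold, moves to -0.50 with normexp, and pulls the mean of the Fosl2 probes to -0.42.

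**Figure D3:**
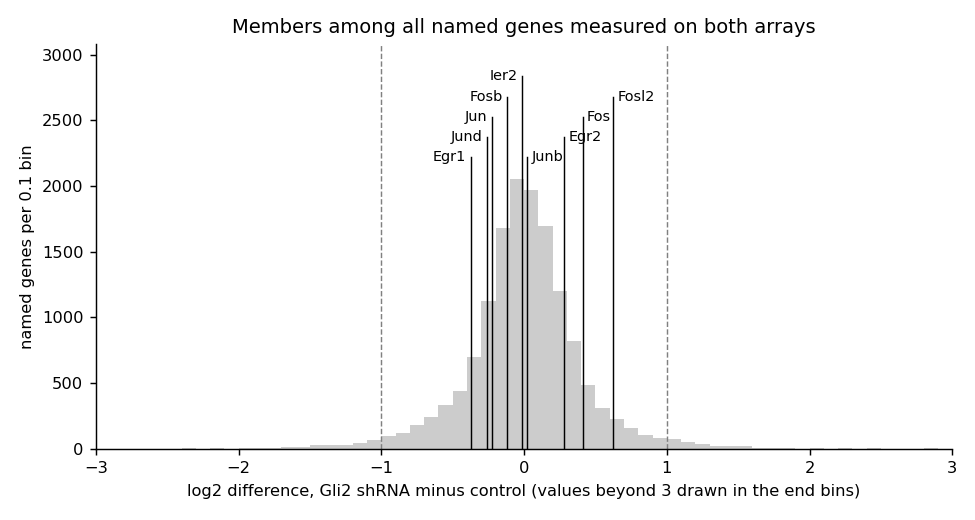
Distribution of the log2 difference, Gli2 shRNA minus control, over the 14563 named genes measured on both arrays (grey bars, genes per 0.1 bin), with the 9 members at their brightest probe as black lines. All 9 lie between the dashed 2-fold lines, from Egr1 at -0.37 to Fosl2 at 0.63.

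Most of the other immediate early genes also lay within 2-fold. For this list and those below, the shares over all genes measured on both arrays were 50.3% above 0 and 3.63% past 2-fold. Of 44 listed genes 41 were measured on both arrays, 28 above 0 and 13 below, with a median of 0.15. 1 was past 2-fold: Btg2, an antiproliferative gene that p53 also induces, with 1455 in the Gli2 shRNA culture and 530 in the control culture (1.18 ± 0.20, and 1.53 on its other probe). Gadd45b, a stress response gene, was 1.997-fold higher (259 in the Gli2 shRNA culture and 107 in the control culture), and its relative Gadd45g differed by 0.86 ± 0.20. At the low end were Rhob, a small GTPase gene (-0.70 ± 0.20), Ccn1, a matrix protein gene (-0.58 ± 0.24), and Trib1, a pseudokinase gene (-0.54 ± 0.20).

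The remaining Egr genes are named here as the nearest relatives of members, outside the rule for named genes. Egr3 gave 184 in the Gli2 shRNA culture and 99.1 in the control culture, a difference of 0.62 ± 0.21. Egr4 gave 159 in the Gli2 shRNA culture and 102 in the control culture, a difference of 0.37 ± 0.21. Egr2, Egr3 and Egr4 thus lay above 0 and Egr1 below it, none of them past 2-fold.

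Among dimer partners of Fos and Jun proteins, 15 of 18 genes were measured on both arrays, 11 above 0, with a median of 0.15. Atf2, which pairs with Jun at CRE-like sites, had 601 in the Gli2 shRNA culture and 1174 in the control culture. Its difference was -1.24 ± 0.20, or 2.37-fold lower, on the brightest probe, and -0.55 on its other probe. Maf (0.62 ± 0.21), Atf3 (0.59 ± 0.21) and Batf3 (0.45 ± 0.20), leucine zipper factor genes like the Fos and Jun genes, had the highest differences. Maff (-0.23 ± 0.20) and Atf4 (-0.19 ± 0.20, and -0.14 on its other probe) lay below 0.

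Genes of the kinase and transcription factor relay that leads to these promoters were within 2-fold. All 46 listed genes were measured, 33 lay below 0 and 13 above, and the median was -0.10. With normexp 17 lay above 0. Of all genes 50.3% lay above 0, and 47.8% with normexp. Lowest were Rps6ka2, an ERK-activated kinase gene (-0.82 ± 0.21), Mapk10, which encodes the neuronal JNK (-0.71 ± 0.21, and -0.91 on its other probe), and Creb1, which encodes CREB (-0.66 ± 0.20, with 3 other probes from -0.79 to -0.04). Mapk3, which encodes ERK1 (0.46 ± 0.20), Crtc1, a CREB coactivator gene (0.42 ± 0.20), and Mapk11, a p38 kinase gene (0.33 ± 0.20), were highest.

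Genes listed as brakes on the pathway or as regulators of its transcripts lay on both sides of 0. Of 25 measured genes 15 lay above 0, with a median of 0.09. Dusp8, a phosphatase gene whose product acts on JNK and p38, was past 2-fold, with 435 in the Gli2 shRNA culture and 145 in the control culture. Its difference was 1.31 ± 0.21, 1.11 on its other probe and 0.98 with normexp. Dusp2 (0.68 ± 0.20) and Dusp4 (0.42 ± 0.20), phosphatase genes induced by ERK signalling, also lay above 0. Dusp7 (-0.51 ± 0.20), Spred1 (-0.35 ± 0.20, and -0.29 on its other probe), an inhibitor of Ras signalling, and Elavl1 (-0.33 ± 0.20) were lowest. Elavl1 is no brake in the strict sense, as its RNA-binding protein is known to stabilise AU-rich transcripts.

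Genes described as targets of AP-1 were mixed. Of 41 listed genes 23 were measured on both arrays, 14 above 0 and 9 below, with a median of 0.08. Anxa1, an anti-inflammatory membrane protein gene, was 2.14-fold lower (146 in the Gli2 shRNA culture and 257 in the control culture, -1.09 ± 0.21, and -1.12 on its other probe), and -0.82 with normexp. The adhesion receptor gene Cd44 (-0.80 ± 0.20, and -0.42 on its other probe) and the dim chemokine gene Ccl2 (-0.52 ± 0.32) were next lowest. S100a6 (0.75 ± 0.24) and S100a10 (0.57 ± 0.20, and 0.44 on its other probe), calcium-binding protein genes, and Plaur, the urokinase receptor gene (0.67 ± 0.22), were highest. S100a6 and Plaur were dim, and with normexp they were 0.27 and 0.39, below S100a10 at 0.57.

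Genes described as targets of Egr1 and Egr2 were centred on 0, with 11 of 22 measured genes above it and a median of -0.01. Tgfb1, a growth factor gene, was 2.18-fold higher but dim (54.0 in the Gli2 shRNA culture and 20.4 in the control culture, 1.12 ± 0.33), and 0.13 with normexp. Syn1 (0.82 ± 0.21), a synaptic vesicle gene, and Cdk5r1 (0.79 ± 0.20), an activator of the neuronal kinase Cdk5, lay above 0. Pmp22 (-0.70 ± 0.20, and -0.18 on its other probe) and Mbp (-0.60 ± 0.37), myelin genes, and Id4 (-0.57 ± 0.21), an inhibitor of bHLH factors, were lowest. Mbp was dim, with 17.7 in the Gli2 shRNA culture and 22.0 in the control culture, and -0.27 with normexp.

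Immediate early genes also respond to handling, so heat shock and stress genes were set beside them. Of 18 such genes, all measured, 8 lay above 0 and 10 below, none was past 2-fold and the median was -0.03. Hspa1a, an inducible heat shock gene, had 634 in the Gli2 shRNA culture and 268 in the control culture, a difference of 0.97 ± 0.20. Hspb1 (0.92 ± 0.23, but dim and 0.40 with normexp) and the ubiquitin gene Ubb (0.34 ± 0.20, and 0.38 on its other probe) followed. Socs3 (-0.60 ± 0.20), Dnajb4 (-0.33 ± 0.21, with 2 other probes at -0.66 and -0.07) and Hspa5 (-0.22 ± 0.20, with 2 other probes at -0.21 and -0.16) were lowest. The part of handling in the differences of Fos and Egr2 was not tested.

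**Figure D4:**
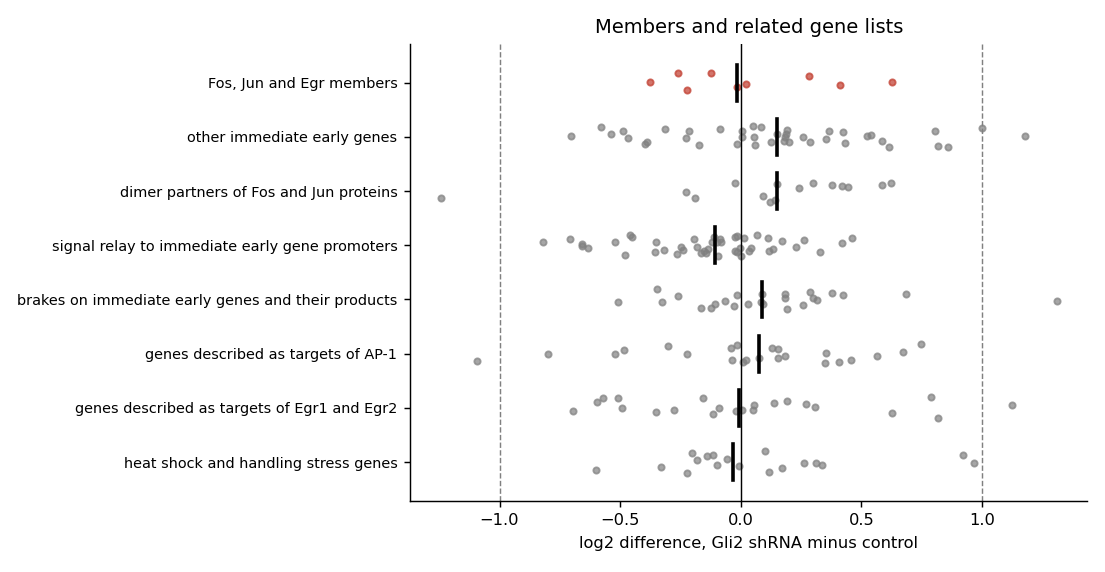
Log2 difference, Gli2 shRNA minus control, of the 9 measured members (red) and of the measured genes of each related list (grey), 1 point per gene at its brightest probe, with the median as a black bar and 2-fold as dashed lines. List medians run from -0.10 (signal relay) to 0.15 (other immediate early genes and dimer partners), beside -0.02 for the members.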

How the data were processed

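Cy3-labelled RNA was measured on Agilent arrays of 1 colour, per the labels' protocols. Agilent Feature Extraction 12.1.0.3 read the scans, per the file headers, and the deposited scanner files hold each spot's processed intensity, its error, median and background intensities, and other values (flags). The authors' deposited value table is on a log2 scale with unstated centring. Its differences deviated from those used here by at most 0.00234, and its column medians were -3.69 (Gli2 shRNA) and -3.55 (control).

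Control spots and spots marked as outliers (120 on the Gli2 shRNA array and 126 on the control array) were left out, and no spot was saturated. Spots of a probe were averaged as log2 intensity minus the array's 75th percentile. Accessions were matched without versions to the RefSeq gene table of GRCm38.p6 (34560 of 56595 probes), used for names and chromosomes, and each gene was represented by its brightest probe. Genes named beyond the members are Gli2 and, in each pathway list, those past 2-fold and the 3 highest and 3 lowest. Cell type markers, Egr3 and Egr4 were named outside this rule. Members and lists were chosen with earlier results of these data known. Precision across cultures is limited by the number of arrays. Alternatives used limma 3.58.1, with normexp (offset 50) on the median spot intensity in place of the planned mean, and 1 change was made at a time. The scaling and probe choice were tested on simulated data, with changes well past 2-fold and noise below the software error. That test does not cover differences as small as those of most members.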

Additional observations from a re-analysis of the deposited data

How the results depend on the processing

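No member was past 2-fold on its brightest probe under any of the 8 alternatives. Of 91 recomputed member values 87 moved by less than 1 software error. Part of these 87 could not move. A change of the filter on dim probes leaves the value of a kept probe as it was. So does the mean of probes for a gene with 1 measured probe. The other 4 concerned Fosl2 and Junb: with normexp the Fosl2 probes gave 0.33 and -0.50, and with the mean of a gene's measured probes Fosl2 was -0.42 and Junb -0.22. Fos ranged from 0.35 to 0.42, Egr1 from -0.40 to -0.35, Egr2 from 0.22 to 0.29 and Jun from -0.23 to -0.18. The number of named genes past 2-fold was 528, of which 50.8% were higher. It was 167 with normexp (40.1% higher), 297 with a processed signal of at least 50 on both arrays and 2844 without the filter on dim probes (769 of them higher). With cyclic loess 58.7% were higher. Dim probes limit these counts, and 1 array per group limits every value.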
